A study of Mus musculus with 2 samples.

Results

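Myelin is the lipid-rich sheath that oligodendrocytes wrap around axons in the central nervous system. The set described here holds 9 mouse genes of myelin and of the cells that make it: Mbp, Mobp, Mal, Mag, Mog, Cldn11, Opalin, Cnp and Ugt8a. Their members are the probe sets to which the platform annotation gives 1 gene symbol and that symbol is one of the 9, which leaves 17 probe sets of the 45037 other than controls, and 9 genes of 17097 named by a single symbol. The genes were chosen by their levels in earlier readings of these arrays, where several were high, so their levels are a description and support nothing.

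The samples are labelled as mouse embryonic stem (ES) cells of strain C57BL/6, pluripotent cells of the early embryo that are not known to make myelin. One sample, labelled control KD, received lentivirus with a scrambled RNA, and the other, labelled TET2 KD, received lentivirus with a short hairpin RNA against Tet2, an enzyme that oxidises 5-methylcytosine in DNA. Both were grown without feeder cells on gelatin in 15% serum with 1000 units/ml of ESGRO, a leukemia inhibitory factor product, short hairpins were driven by a U6 promoter in a vector with puromycin resistance, and both cultures spent 72 hours in puromycin before 2 µg of total RNA was labelled. Each group is 1 array of 1 sample, so no difference below has an error or a test, and having so few arrays limits precision.

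The label check came first. Tet2 has 2 probe sets here, which read 83.7% and 96.2% of the control KD level in the sample labelled TET2 KD, so the samples are called by their labels throughout and no direction is tied to a loss of Tet2. Of 18 ES cell markers measured, 12 (66.7%) reached the floor in both samples, near the 63.96% of all genes that did. The floor is the median of all values, 2.55 on the log2 scale. Pou5f1, at 1.07 and 1.29, and Nanog, at 1.01 and 0.97, 2 defining transcription factors of ES cells, were under it. They are among 6 of the 18 markers under the floor in both samples and do not stand for the list. The median level of the 18 was 5.55 in the sample labelled control KD and 6.09 in the sample labelled TET2 KD. Over all genes it was 4.11 and 4.06. Of all 45141 probe sets, 1892 (4.19%) hold the same pair of values as another, and neither the alignment of values with names nor the identity of the RNA was tested.

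Oligodendrocytes lay down myelin by spiralling their membrane around an axon and squeezing out the cytoplasm between turns. Basic proteins such as MBP hold the inner faces together, immunoglobulin-like and tight junction proteins act at the surface and between turns, and enzymes build the galactolipids that make up much of the sheath. The transcription factors SOX10, OLIG2 and MYRF drive these genes as progenitors mature.

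All 9 genes reached the floor in both samples when each was read from its brightest probe set, beside 63.96% of all genes. Apart from Opalin they differed by little between the arrays, from -0.29 for Cnp to 0.15 for Cldn11 on the log2 scale, while Opalin read 1.13 higher in the sample labelled TET2 KD. One of the 9 was thus higher by 2-fold or more and 0 were lower, beside 1.17% and 1.41% of the 11174 genes whose mean of both arrays reached the floor. At 1.5-fold the counts were again 1 and 0, beside 1.78% and 5.42% of genes. The median difference of the 9 was -0.10, beside -0.01 over all genes at or above the floor, where the robust SD of the differences was 0.146. With the mean or the median of all probe sets of each gene the median of the 9 was 0.022, so its sign rests on the choice of probe set.

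The promoters are shown because the hairpin was aimed at an enzyme that acts on methylated CpG sites and because the genes share known regulators. Methylation was not measured in this series. RefSeq windows of assembly GRCm38.p6 were read for 8 of the 9 genes, each over the 250 bases before the annotated start. Mbp is not among them. Windows on its chromosome were left out of the members but not out of the background of all windows. The first 3 below have their CpG sites in capitals. Opalin is the gene past 2-fold, and Mog and Cldn11 are surface genes with few and many CpG sites.
Opalin, chr19:41077114-41077363, minus strand: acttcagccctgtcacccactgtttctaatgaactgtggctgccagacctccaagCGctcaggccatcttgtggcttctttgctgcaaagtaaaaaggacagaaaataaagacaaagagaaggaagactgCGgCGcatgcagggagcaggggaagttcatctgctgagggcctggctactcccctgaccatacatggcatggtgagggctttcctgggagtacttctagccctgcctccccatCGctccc
Mog, chr17:37023399-37023648, minus strand: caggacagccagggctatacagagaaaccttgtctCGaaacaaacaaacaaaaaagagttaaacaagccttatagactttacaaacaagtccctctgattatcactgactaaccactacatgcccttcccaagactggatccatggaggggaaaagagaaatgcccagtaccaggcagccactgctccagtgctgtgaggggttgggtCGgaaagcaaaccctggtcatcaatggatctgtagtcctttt
Cldn11, chr3:31149670-31149919, plus strand: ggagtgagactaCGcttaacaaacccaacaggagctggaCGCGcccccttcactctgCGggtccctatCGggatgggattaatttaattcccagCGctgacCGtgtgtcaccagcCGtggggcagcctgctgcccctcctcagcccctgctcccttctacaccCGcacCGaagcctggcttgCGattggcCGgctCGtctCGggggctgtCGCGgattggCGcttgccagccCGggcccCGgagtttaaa
The window of Mobp has its matches to a SOX motif in capitals.
Mobp, chr9:120149492-120149741, plus strand: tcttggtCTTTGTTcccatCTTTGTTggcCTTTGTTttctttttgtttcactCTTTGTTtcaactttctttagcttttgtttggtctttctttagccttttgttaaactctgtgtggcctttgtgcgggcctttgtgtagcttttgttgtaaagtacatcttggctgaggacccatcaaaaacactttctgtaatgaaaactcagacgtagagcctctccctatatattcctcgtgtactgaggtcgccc

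CpG sites were spread unevenly over these windows. Opalin had 4, Mog 2, Mobp 4, Mal 7, Cnp 13, Cldn11 19 and Ugt8a 32, and the 3 annotated starts of Mag had 2, 3 and 3. Over all 32851 windows of the table the median was 6, and 6 of the 10 member windows had that many or fewer. The Opalin window, with 4, sat below that median, and 44.4% of all windows had as few.

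Motifs were searched on both strands, and none of them contains another. AACAAAG, a SOX site, was found in the windows of Mobp (4 matches) and Cnp (1 match), 2 of 10 windows, beside 5.03% of all windows. CTGGCAC or CTGGTAC, the letters bound by MYRF, stood in the windows of Cnp, Mog and 2 of the 3 starts of Mag, 4 of 10, beside 5.93% of all. CAGCTG, an E-box, stood in 0 of 10, beside 13.0%. The last 2 of the 3 Mag windows overlap and share sequence, a match is a description and not a site, and no match in the Opalin window says only that those letters are absent there.

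The proteins of compact myelin come first. Mbp encodes myelin basic protein, which binds the inner faces of the membrane to one another. Its brighter probe set, 1419646_PM_a_at, read 10.32 in the sample labelled control KD and 10.22 in the sample labelled TET2 KD, a difference of -0.10, and lay above 99.8% of all probe sets on both. The dimmer one, 1451961_PM_a_at, read 7.56 and 7.56, a difference of 0.0040. In linear signal these are 93.1% and 100.3% of the control KD level, so Mbp was high and close to equal in both samples. A further probe set, annotated to both Mbp and Ctbp2 and therefore no member, read 9.66 and 9.52.

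Mobp, a small basic protein on the inner membrane face, was read by 4 probe sets. The brightest read 7.59 in the sample labelled control KD and 7.52 in the sample labelled TET2 KD, and the next 6.33 and 6.36. The other two read 6.09 and 6.18, and 2.49 and 2.56. Their differences ran from -0.08 to 0.097, so all 4 read nearly alike in both samples, and the dimmest, whose 2 values lie on either side of the floor, is at the edge of what the table resolves.

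Mal is a membrane-spanning proteolipid of lipid rafts, also made by T cells and kidney epithelium. Its brighter probe set read 8.13 in the sample labelled control KD and 8.003 in the sample labelled TET2 KD, a difference of -0.13. Its other probe set was under the floor in both samples, at 1.96 and 2.13, a difference of 0.17. The level of Mal thus rests on 1 of its 2 probe sets.

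Next come the proteins of the surface and of adhesion. Mag, a sialic acid-binding lectin on the membrane that faces the axon, has 1 probe set, 1460219_PM_at. It read 7.24 in the sample labelled control KD and 7.01 in the sample labelled TET2 KD, which is 85.5% of the control KD signal and a difference of -0.23. A difference of that size or more was found in 21.2% of genes at or above the floor. Both values of this probe set are equal, to all 9 decimals, to those of a probe set of Ppp1r7, a phosphatase regulator, so which gene they belong to cannot be told from the table. It is the only one of the 17 member probe sets with such a partner, 5.88% of them.

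Mog, an immunoglobulin-like protein on the outermost turn of the sheath, read 3.32 in the sample labelled control KD and 3.18 in the sample labelled TET2 KD. Cldn11, a claudin that seals the space between turns and is also made by Sertoli cells of the testis, read 2.93 and 3.09. Each has 1 probe set, and both lay between 0.38 and 0.76 above the floor. Their differences, -0.14 and 0.15, are of the size of the robust SD over all genes and point in opposite directions.

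Opalin, a glycoprotein that spans the oligodendrocyte membrane, gave the largest difference of the 9. Its brighter probe set, 1435854_PM_at, read 4.88 in the sample labelled control KD and 6.01 in the sample labelled TET2 KD, 2.19-fold higher there. On the first array it stood at percentile 74.6 of all probe sets and on the second at 85.5. Its other probe set, 1447487_PM_at, was under the floor in both samples and read lower in the sample labelled TET2 KD, at 1.19 and 0.86. The mean of the 2 probe sets differed by 0.40, short of 2-fold. Among the 11174 genes, 227 (2.03%) differed by as much as the brighter probe set of Opalin in either direction. Of 53 genes that were likewise 2-fold higher and have another probe set, 29 had the others all under the floor, and 4 had another one that was 2-fold higher as well.

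The summed signal of the 8 measured pituitary genes also differed between these arrays, at 3598 in the sample labelled control KD and 69.0 in the sample labelled TET2 KD on the linear scale. All 4 of them with a mean at or above the floor, Prl, Gh, Pomc and Fshb, were lower by 2-fold or more in the latter, beside 1.41% of all genes. The other 4 had a mean under the floor. Of these, Cga, which encodes a hormone subunit, was higher in the sample labelled TET2 KD, at 2.80 beside 1.29. Because 1.29 is under the floor, that is at least 1.19-fold against the floor. Lhb read 1.57 there beside 2.98 in the sample labelled control KD, at least 1.34-fold lower against the floor. Tshb, at 2.02 and 0.62 in the samples labelled control KD and TET2 KD, was under the floor in both, as was Tbx19. The 8 myelin genes other than Opalin had differences of 0.29 or less in size. Whether the pituitary difference has a part in the Opalin reading or in those of the other 8 was not tested. In bulk RNA, fewer cells of a type and less RNA per cell cannot be told apart.

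**Figure D1:**
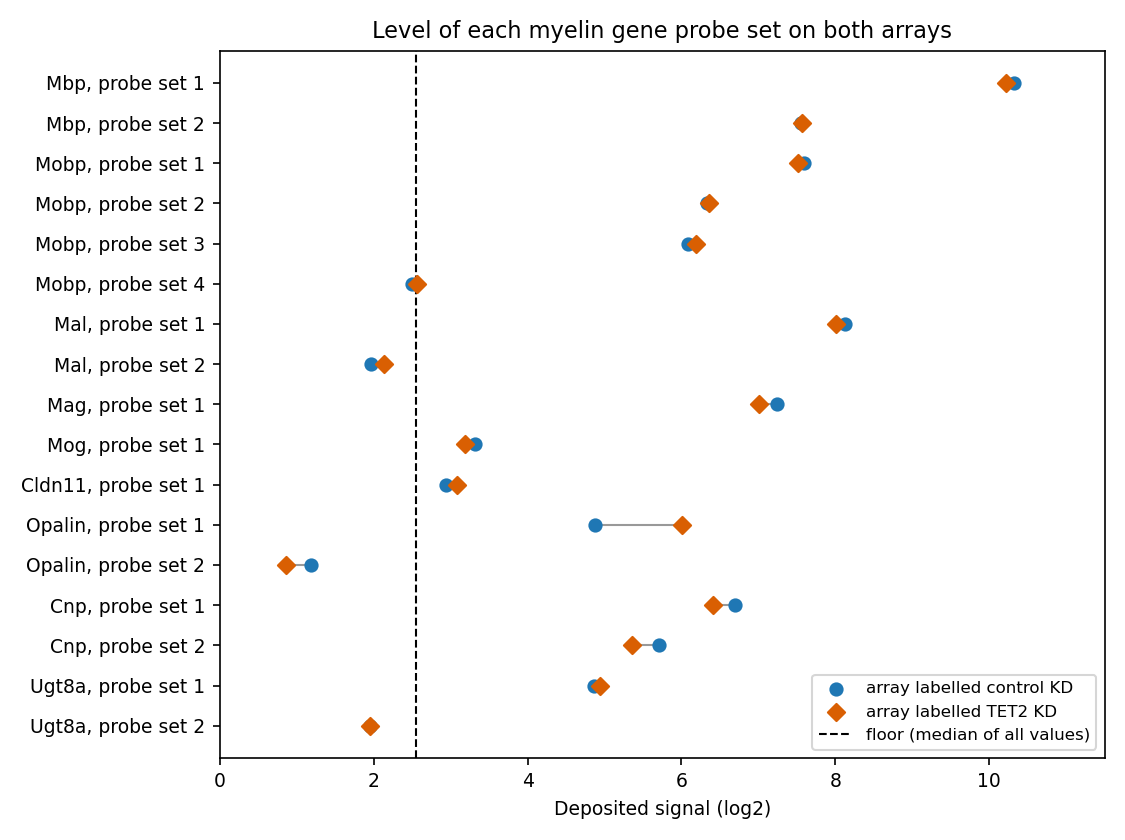
Deposited log2 signal (x axis) of the 17 probe sets of the 9 myelin genes (rows, brightest first within a gene), with a circle for the sample labelled control KD, a diamond for the sample labelled TET2 KD and a dashed line at the floor of 2.55. The 2 symbols nearly coincide in most rows, and the first Opalin probe set, at 4.88 and 6.01, is the row where they stand farthest apart.

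The enzymes are the last group. Cnp encodes CNPase, a phosphodiesterase of non-compact myelin and an early marker of the lineage. Its brighter probe set, 1418980_PM_a_at, read 6.70 in the sample labelled control KD and 6.41 in the sample labelled TET2 KD, which is 82.0% of the control KD signal and a difference of -0.29. The dimmer one, 1449296_PM_a_at, read 5.71 and 5.36, a difference of -0.36 or 78.1%. Both Cnp probe sets thus read lower in the sample labelled TET2 KD by similar amounts, short of 1.5-fold. A difference as large as that of the brighter one, in either direction, was found in 15.7% of genes at or above the floor. Of 3654 genes with at least 2 probe sets that reached the floor, 50 (1.37%) had a difference of -0.29 or lower in every one of them. That cutoff is the value of Cnp itself, and probe sets of a gene share its RNA and are not replicates.

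Ugt8a encodes the transferase that makes galactosylceramide, a main lipid of myelin. Its brighter probe set read 4.87 in the sample labelled control KD and 4.94 in the sample labelled TET2 KD, a difference of 0.07. The other was under the floor in both samples, at 1.95 and 1.95. Both read nearly alike in the 2 samples.

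Over the set, 13 of 17 probe sets were at floor level or higher in both samples (76.5%, beside 55.7% of all probe sets with a single symbol), 1 was on a single array and 3 were under it in both. Of these, 5 probe sets, of Mbp (both), Mobp, Mal and Mag, were above the 90th percentile on both arrays. Of the 9 genes, Mbp, Mobp and Cnp have more than 1 probe set with a mean at or above the floor, and within a gene these stood 2.71, 1.42 and 1.02 apart in mean level, beside a median of 1.69 over all genes with several such probe sets. Probe sets differ in how well they bind, so these levels do not rank the genes by RNA. The difference between arrays varied less within a gene than the level did. Its range over the same probe sets was 0.11 for Mbp, 0.18 for Mobp and 0.071 for Cnp, beside a median of 0.17 over those genes. With probe sets under the floor included, the range was 1.46 for Opalin, 0.30 for Mal and 0.072 for Ugt8a. The median over all genes with several probe sets, the brightest at or above the floor, was then 0.21.

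**Figure D2:**
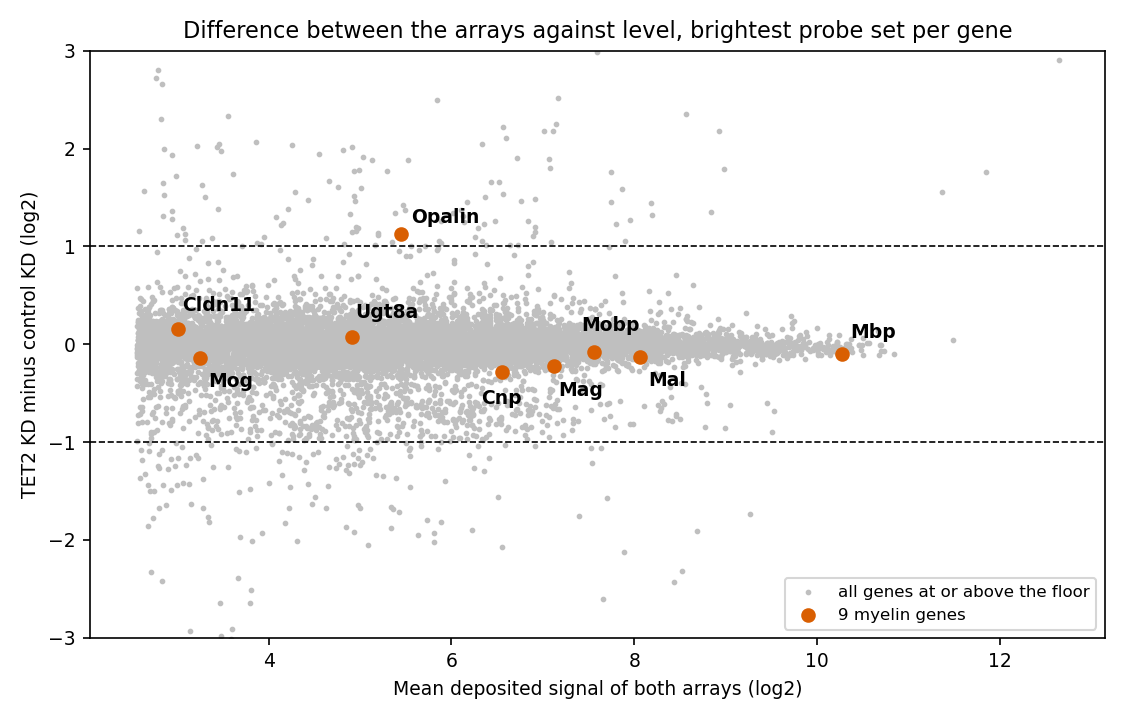
Difference between samples by label, TET2 KD minus control KD (y axis, log2) against the mean of both arrays (x axis, log2) for the brightest probe set of 11174 genes (grey) and of the 9 myelin genes (orange), with dashed lines at 2-fold. The myelin genes other than Opalin lie between -0.29 and 0.15 and Opalin at 1.13, and 18 other genes lie beyond the plotted range of 3 in either direction.

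Other genes of oligodendrocytes were read from 4 lists, of which 87 genes were measured. Of these, 68 (78.2%) were at floor level or higher in both samples, beside 63.96% of all genes, and 15 were under it in both. Among the 72 whose mean reached the floor, 0 were higher by 2-fold and 1 was lower, and their median difference was -0.03. These counts lie below or near the 1.17% and 1.41% of all genes, and nothing about these lists is read from them.

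Of 19 further genes of the myelin membrane, 12 were at floor level or higher in both samples, and 0 of the 14 with a mean there passed 2-fold, with a median difference of -0.00043. Gpm6b, a membrane glycoprotein of neurons and glia, read 8.46 and 8.46. Cd9, a tetraspanin, read 7.11 and 6.97, Cmtm5 6.47 and 6.43, and Nfasc, neurofascin of the node and paranode, 5.98 and 6.15. Among the 14, the largest differences were those of Pmp2, a fatty acid-binding protein of myelin (0.58, under the floor in the sample labelled control KD), the connexin Gjc3 (0.39) and Tmem125 (-0.39). Pllp, at 2.44 and 1.52, and Cntn2, at 1.49 and 2.24, were further apart but under the floor in both samples.

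Of 28 oligodendrocyte enzymes and cytoplasmic proteins, 24 were at floor level or higher in both samples. In this list 0 of 25 passed 2-fold, and the median difference was -0.06. Gstp1, a glutathione transferase, read 9.55 and 9.43, Anln, anillin, 9.27 and 9.18, Plekhb1 9.04 and 8.96, and Qdpr, a pteridine reductase, 8.58 and 8.52. The largest differences were those of Carns1, carnosine synthase (5.44 and 4.47), Enpp6, a choline-specific phosphodiesterase of newly formed oligodendrocytes (4.56 and 3.87), and Cryab, a small heat shock protein (7.89 and 8.44). Averaged over its 3 probe sets, Enpp6 differed by -0.15.

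Of 21 lineage and progenitor genes, 14 (66.7%) were at floor level or higher in both samples, near the 63.96% of all genes. Another 6 were under the floor in both, and the median difference of the 15 with a mean at or above it was 0.07. The transcription factors Olig1 (6.66 and 6.76), Sox10 (6.12 and 6.03) and Olig2 (5.98 and 5.88) differed by -0.10 to 0.10. Zfp24 read 6.52 and 6.31 and the phosphatase Ptprz1 6.29 and 6.31. Pdgfra, the growth factor receptor that defines progenitors, was under the floor in both samples, at 1.76 and 1.57. Zfp536, a zinc finger repressor, was the gene past 2-fold, at 3.15 and 2.07. Because it was under the floor in the sample labelled TET2 KD, it is at least 1.51-fold lower there against the floor. Pcdh15, a protocadherin, differed by 0.83 and Lhfpl3 by 0.26, and Pcdh15 by 0.28 when its 3 probe sets were averaged.

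Genes of myelin lipid synthesis and turnover, most of them active in many cell types, were at floor level or higher in both samples in 18 of 19 cases. None of these 18 (0) passed 2-fold, and the median difference was -0.06. Psap, the precursor of the saposins, read 9.33 and 9.33, Idi1, of cholesterol synthesis, 8.57 and 8.51, the elongase Elovl6 8.38 and 8.32, and the desaturase Degs1 8.24 and 8.17. The largest differences were those of Galc, the enzyme that breaks down galactosylceramide (4.57 and 3.77), and of the serine palmitoyltransferase subunits Sptlc2 (6.58 and 5.96) and Sptlc1 (6.24 and 5.77). Averaged over all probe sets of each gene, these 3 differed by -0.31, -0.22 and -0.24.

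Marker lists of other cells of nervous tissue were read beside the myelin genes. At floor level or higher in both samples were 12 of 15 astrocyte genes, 17 of 19 neuronal genes, 6 of 13 microglial genes and 4 of 8 Schwann cell genes. These counts stand beside 63.96% of all genes. Of the Schwann cell genes, Sox10, Pmp22 and Pmp2 also stand in the oligodendrocyte lists. Their median differences were -0.06, 0.02, -0.09 and 0.08, and 0 of 12, 17, 6 and 5 members whose mean reached the floor passed 2-fold. P2ry12, a purinergic receptor of microglia, had a mean under the floor but read 1.03 in the sample labelled control KD and 3.58 in the sample labelled TET2 KD, at least 2.04-fold higher when set against the floor. Of their defining markers, Gfap of astrocytes read 4.23 and 4.48, Aif1 of microglia 4.15 and 3.89, and Snap25 of neurons was under the floor at 2.51 and 2.26. Single markers do not stand for their lists. Snap25 was 1 of 2 neuronal genes under the floor in both samples, and the median level of the 19 was 6.90 and 6.79. Of the 13 microglial genes, 6 were under the floor in both samples. In the ES cell list Klf4, at 5.87 and 6.88, was the member past 2-fold of 12, beside a share of 1.17% for all genes in that direction. Klf4 passed narrowly, with a difference of 1.01, and averaged over its 2 probe sets it differed by 0.76, short of 2-fold.

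**Figure D3:**
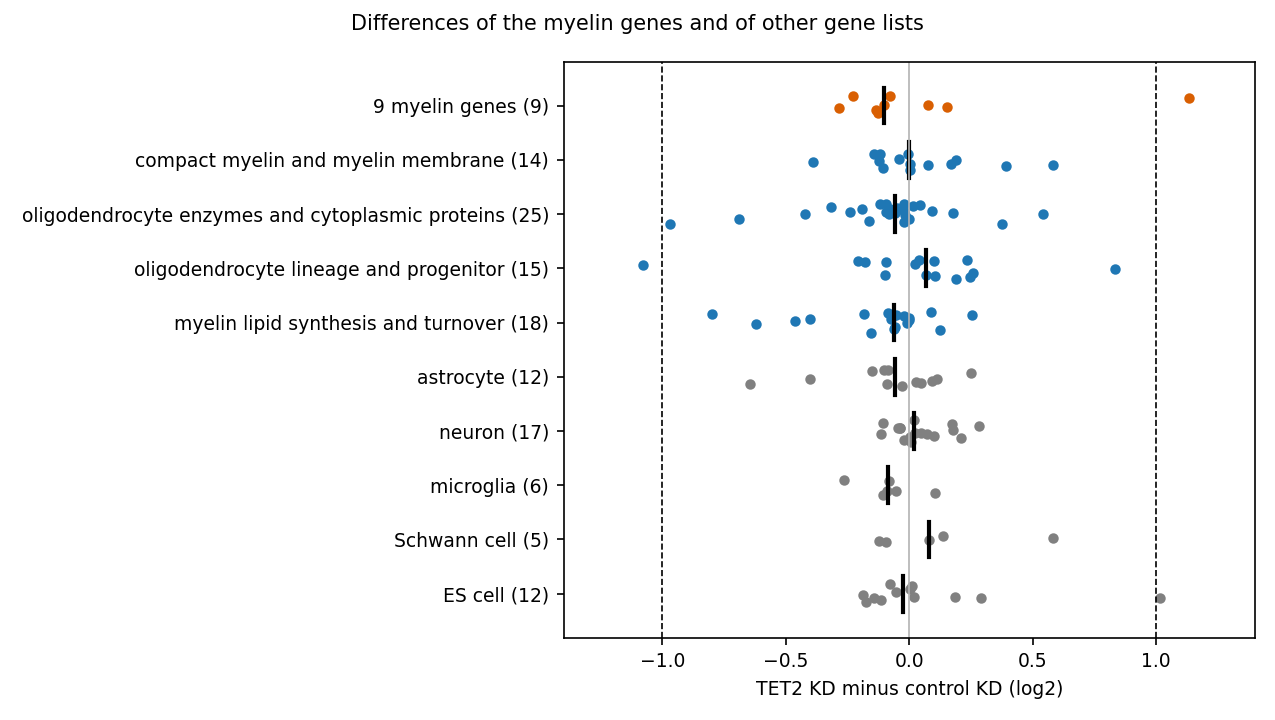
Difference between samples by label, TET2 KD minus control KD (x axis, log2) for each gene with a mean at or above the floor in the 9 myelin genes (orange), 4 oligodendrocyte lists (blue) and 5 cell type lists (grey), with the number of genes in parentheses, black bars at medians and dashed lines at 2-fold. Among the plotted lists, medians run from -0.10 for the myelin genes to 0.08 for the Schwann cell list, and Opalin, Zfp536 and Klf4 are the points beyond 2-fold. The pituitary list, with a median of -5.39 and all 4 genes lower by 2-fold or more, is not plotted.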

How the data were processed

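Total RNA of 2 samples was hybridised to 1 Affymetrix array each. The authors deposited 1 value per probe set, which was taken as log2 signal. Affymetrix Expression Console is named in the submitters' processing notes. How probes were summarised, corrected for background and normalized, with which version, and the log base are not given in the sources used. As natural logarithms the highest control KD value would be 95197.5, above the 65535 of a 16-bit scanner.

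A gene was read from its brightest probe set by the mean of both arrays, and counted as higher or lower at 2-fold among genes with a mean at or above the median of all values. The platform annotation gives 1 symbol to 28898 probe sets, several to 551 and none to 15588. The members and lists were chosen with earlier results of these data known. Named are all members, Tet2, and, in the 4 oligodendrocyte lists, the 4 brightest genes, the 3 with the largest differences, any past 2-fold and defining markers. Of the other lists the last 2 kinds are named. Some genes with a mean under the floor are named outside this rule, with their values known. These are P2ry12, Cga, Lhb, Tshb and Tbx19, and Pllp and Cntn2 of the oligodendrocyte lists. Alternatives covered scaling, the floor, the choice of probe set, the fold, and, added after the data were seen, probe sets with repeated values. Counting was tested on simulated data. Python 3.11.15, numpy 2.4.6 and pandas 2.3.3 were used.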

Additional observations from a re-analysis of the deposited data

How the results depend on the processing

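The number of members past 2-fold stayed at 1 higher and 0 lower under median centring, quantile normalization, both other floors and the 1.5-fold threshold. The same held without repeated values and when probe sets without _s_, _x_ or _a_ in their names were preferred, with Opalin between 1.13 and 1.17. With the mean or the median of all probe sets the number was 0 higher, with Opalin at 0.40. Mal differed by 0.022 averaged over probe sets. The Mal probe set without such a letter differed by 0.17, the other way from the brightest, but was under the floor in both samples. The difference of Mobp ran from -0.08 to 0.062. Raising the floor to the 75th percentile left 5 members at or over it in both samples, all genes past 2-fold were 80 higher and 60 lower, the oligodendrocyte lists had 0 lower, and the medians of the Schwann cell and pituitary lists were -0.094 and -6.09. The pituitary median, -5.39 in the main setting, was -4.10 at the 25th percentile and -5.61 with the mean or median of probe sets. With the mean of probe sets 87 genes were higher. With their median 1 oligodendrocyte list gene, Pde4b, was higher, at 1.45, and it was named after its value was seen. That value is the difference between the medians of its 3 probe sets on each array. Its brightest probe set read 7.11 in the sample labelled control KD and 7.09 in the sample labelled TET2 KD. Averaged over the 3, Pde4b differed by 0.43. At 1.5-fold, 199 genes were higher and 606 lower, and the oligodendrocyte lists had 1 and 5. Of 201 alternative values, 22 moved by more than the robust SD or 1.5 times, and in 17 a difference or a list median turned its sign; the cause was not tested. Among these were Mal, Mobp, the Schwann cell median and the median of the 9 members, which was 0.022 with the mean or the median of all probe sets. No paired analysis was possible because each group is 1 array. For the same reason no replicate could be left out. Signal over background limits Mog and Cldn11, which lie near the floor.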
